A study of Mus musculus with 20 samples.

Results

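Injured and uninjured tracheas of Myd88 knockout mice (Myd88KO) were compared at day 3 after injury, using the 5 arrays labelled as injured KO and the 5 labelled as control KO out of the 20 arrays of the study. All mice were C57/Bl6 and 4 months old by the labels, and the tissue was whole trachea. The knockout is a whole-body deletion that both groups carried: the line had been backcrossed for several generations to C57/Bl6JOlaHsd and bred as KO × KO, while wild-type mice came from a separate colony. Injured mice had received 2% polidocanol into the airway 3 days before collection, whereas controls were left uninjured. The 10 wild-type arrays were 5 uninjured and 5 injured in the same way. They entered the probe filter and the shared estimate of the spread on which every Myd88KO call rests. Otherwise they are used only to show where the Myd88KO response differed. The sex of single animals is not given in the labels, and the study used males and females.

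Polidocanol is a detergent that strips the luminal cells of the tracheal epithelium. Club cells, which secrete secretoglobins and metabolise xenobiotics, and ciliated cells, which carry motile cilia, are lost, and basal cells beneath them spread, divide and later form new luminal cells. Leukocytes enter the tissue during this repair. Myd88 is the adaptor through which most Toll-like receptors and the interleukin-1 receptor family activate NF-kB, and its targets include acute phase proteins and chemokines.

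Levels are log2 intensities relative to the 75th percentile of each array, which is 0 on this scale, and differences are injured minus uninjured means on the log2 scale. A probe was tested if 10 or more of the 20 arrays had it well above background. The test was limma's, and an adjusted p under 0.01 was called. The share of spots well above background was 57.5% on injured Myd88KO array 5 and 59.1% to 67.8% on the other 19. The markers of epithelium (Epcam), club cells (Scgb1a1), ciliated cells (Foxj1), basal cells (Krt5), cartilage (Col2a1) and smooth muscle (Acta2) were well above background on every uninjured Myd88KO array. Markers of thyroid (Tg), skeletal muscle (Myh4) and brown fat (Ucp1) were also well above background on all 10 arrays, and their part in the results was not tested. The labels do not say whether the 5 samples of a group were separate animals, although the study describes them as biological replicates. The p values set differences against the spread between samples of a group, estimated for each probe over all 20 arrays together. Wild-type arrays thus enter this estimate, while the injured Myd88KO arrays spread more widely than the other groups (median SD 0.394, against 0.291 to 0.331).

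Injured Myd88KO array 5 stood apart from the other injured arrays. Its change from the uninjured mean correlated across probes with the mean change of the other 4 at r = 0.0159, whereas the values for arrays 1 to 4 were 0.34, 0.646, 0.728 and 0.712. On array 5, 4.09% of probes lay over 2-fold from the uninjured mean, against 9.9% to 16% on arrays 1 to 4. Array 5 was also the only injured Myd88KO array with low Xist (−4.26, against 3.36 to 4.01) and high Y-linked Ddx3y (1.28, against −7.50 to −7.06), as were uninjured Myd88KO arrays 2 and 3. Injured array 1 stood apart in Trim12a, a member of the TRIM family, which read 1.01 there, −7.44 to −5.19 on the other 9 Myd88KO arrays and 0.81 to 2.42 on wild-type arrays. Without array 1, 57 probes were called, of which 38 were among the 98 called with all arrays. The extent of injury of single animals was not analysed here, and results are given with and without array 5, and for the axoneme also without array 1. Without array 5, injured arrays of high Xist only are set against 3 uninjured arrays of high and 2 of low Xist. Effects of sex and of leaving out array 5 therefore cannot be told apart in those results. With only the Myd88KO arrays of high Xist in both groups, 318 probes were called, against 1075 without array 5.

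The Myd88 probe itself gave levels of 2.00, 1.82, 2.04, 1.86 and 1.60 on uninjured and 1.54, 2.04, 2.09, 2.09 and 1.68 on injured Myd88KO arrays. The groups overlapped, with a difference of 0.02 (SE 0.14, adjusted p = 0.945 by limma). The uninjured wild-type arrays read 1.94 to 2.28, and the uninjured Myd88KO minus wild-type difference was −0.21 (SE 0.14, adjusted p = 1). After injury the wild-type arrays read 2.36 to 2.80 and the Myd88KO difference from them was −0.77 (adjusted p = 0.00824). Where the probe lies with respect to the deletion was not analysed here, so that it does not check the genotype.

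Of 26063 probes tested, from 17733 genes, 98 were called after injury of Myd88KO tracheas. They comprised 35 higher probes from 31 genes (0.134% of probes tested) and 63 lower probes from 60 genes (0.242%). The largest rises were in Arl14, chitinase-like Chil3 and the annexin Anxa10, followed by a group of genes for centrosome duplication and cell division, and the largest falls were in the secreted proteins Sftpa1 and Scgb1a1. In 31 of the 35 and 53 of the 63 the injured arrays lay entirely above or below the uninjured ones, as did 1.15% and 2.3% of all probes. The 53 include Scgb1a1 and Bpifa1, whose spots on array 5 were left out. Without injured array 5 the same fit called 487 probes higher (1.87%) and 588 lower (2.26%), including all 98. Array 5 was singled out by these same values, so that the larger counts are not independent support for the calls. Leaving out any other single Myd88KO array gave 6 to 57 calls, and a fit of the 10 Myd88KO arrays alone gave 0, with 4343 probes at an unadjusted p under 0.05. Of the 98, 35.7% were higher, and this split moved to 58 higher and 65 lower (47.2% higher) with normexp background correction and to 26 and 30 (46.4%) with median scaling. The slides were scanned on 2 days, with injured replicates 1 and 5 on the second, and with scan day as a block 131 probes were called higher and 230 lower.

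**Figure D1:**
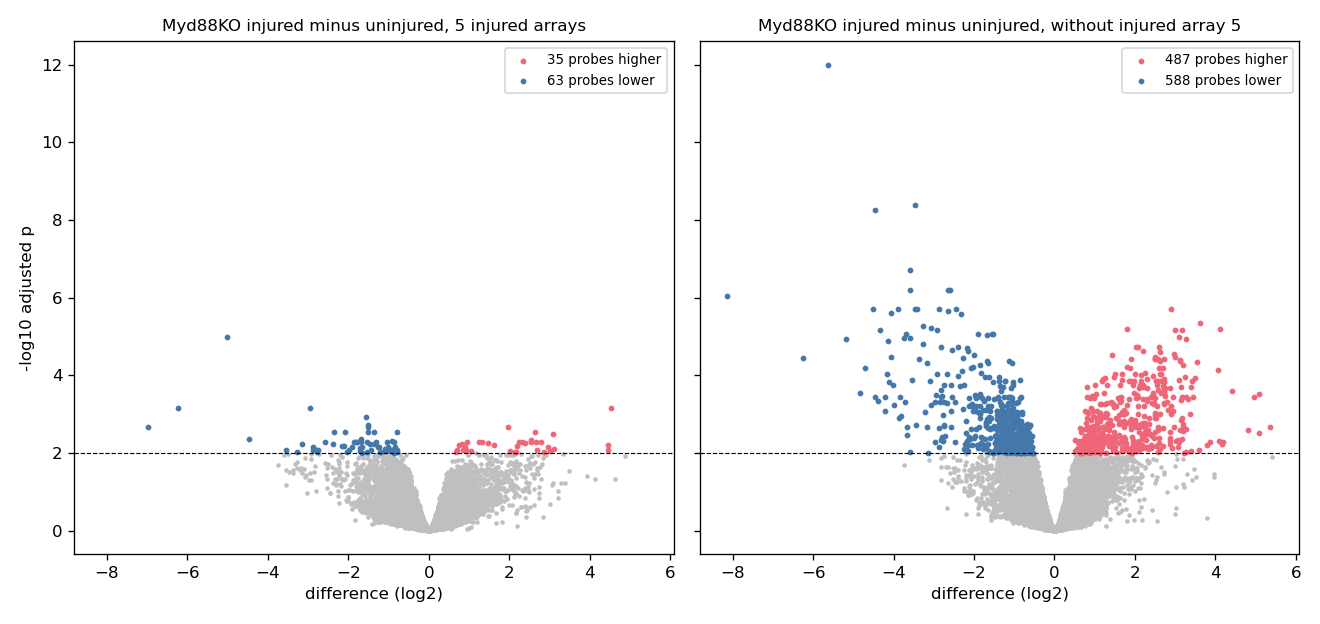
Difference between injured and uninjured Myd88KO tracheas (log2, horizontal axis) against −log10 of the limma adjusted p (vertical axis) for the 26063 tested probes, with all 5 injured arrays (left) and without injured array 5 (right). Red and blue points are probes called higher and lower, 35 and 63 on the left and 487 and 588 on the right, and the dashed line marks an adjusted p of 0.01.

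Genes of cell division were prominent among the rises. Aurka, the kinase that matures the spindle poles, read 0.87, 0.34, 0.09, 0.18 and 0.69 on uninjured and 3.64, 3.27, 2.19, 2.97 and 1.29 on injured arrays. All injured arrays were above all uninjured ones, with array 5 the lowest of the injured, and the difference was 2.23 (SE 0.36, adjusted p = 0.00516 by limma, 2.58 without array 5). Cep55, which organises the midbody in the last step of division, rose by 3.09 (SE 0.46, adjusted p = 0.00318, 3.61 without array 5). Its levels were −3.92 to −2.44 on uninjured arrays and 0.91, 0.19, −0.13, 0.64 and −2.21 on injured ones, again with array 5 just above the uninjured range. A second Cep55 probe was well above background on 0 uninjured arrays and was at least 3.82-fold higher after injury by the deposited intensities. With normexp its log2 difference was 0.85, short of that bound.

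Plk4, the kinase that starts centriole duplication, and Stil, its partner in that step, were called at 2 probes each. Plk4 read −5.55, −4.60, −6.19, −4.74 and −4.76 on uninjured and −0.21, −2.63, −1.42, −2.89 and −3.14 on injured arrays, a difference of 3.11 (SE 0.55, adjusted p = 0.00796). Every injured array, array 5 included, lay above the uninjured range, and array 1 was the highest for Plk4 as it was for Stil (2.97, adjusted p = 0.00701). This Plk4 probe was well above background on 1 uninjured array, and it did not pass with normexp (1.35, adjusted p = 0.0268) or with the slide as a block (adjusted p = 0.0118), nor did this Stil probe with normexp (1.53, adjusted p = 0.0155). Other called genes with a role in division were Ckap2l (2.69), Spag5 (2.55) and Nuf2 (2.18) of the spindle and kinetochore, and Ect2 (2.19), which directs the cleavage furrow. Fignl1 (2.78) and Rad54b (2.64), which act in repair by homologous recombination, and Dtl (2.40), which targets replication factors for degradation, were also called. On array 5, Nuf2 (−1.68) and Dtl (−3.14) lay inside their uninjured ranges, and Nuf2 did not pass with the slide as a block (adjusted p = 0.0129).

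Of the 51 tested genes in the mitosis list, 51 were higher after injury, with a median difference of 1.92, whereas the median of all tested genes was −0.09. Only 4 of the 51 were called, Ckap2l, Aurka, Ect2 and Nuf2, against 0.152% of all genes called higher at their brightest probe. Without array 5 the count was 45 of the 51, against 1.92% of all genes. The list median on injured arrays 1 to 5 was 1.95, 2.86, 1.95, 2.88 and −0.10, while the uninjured arrays lay between −0.39 and 0.42, so that arrays 1 to 4 were all above and array 5 was inside the uninjured range. Within scan days the median difference was 2.80 on the first and 0.63 on the second, which holds arrays 1 and 5. Among fixed markers of cycling cells, Top2a read −4.13 to −3.10 uninjured and −1.25, −0.66, −0.93, −0.33 and −3.82 injured (2.12, SE 0.53, adjusted p = 0.035, and 2.73, adjusted p = 0.00028 without array 5). Mki67 differed by 2.10 (adjusted p = 0.0779, and 0.0152 without array 5).

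The DNA replication list behaved in the same direction but to a smaller extent. All 47 tested genes were higher, with a median of 0.89, and 0 were called, against 0.152% of all genes (23 of 47 without array 5, against 1.92%). Its array medians were 0.60, 1.84, 0.73, 1.78 and −0.25, so that arrays 2 and 4 were high, arrays 1 and 3 intermediate and array 5 was below the uninjured range of −0.13 to 0.16. Dbf4, the regulatory subunit of the kinase that fires replication origins, came closest, from −3.90 to −3.15 on uninjured arrays to −0.37, −0.83, −1.20, −0.64 and −3.13 on injured ones (2.15, SE 0.41, adjusted p = 0.0108). Of these, arrays 1 to 4 were well above the controls.

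Sequences upstream of called cell division genes are shown because promoters of such genes commonly carry 2 short motifs, the CCAAT box and the cell cycle genes homology region TTTGAA. Each is the 120 bases before the outermost annotated start site from RefSeq (GRCm38.p6), 5′ to 3′ on the strand of the gene, for those called genes whose window lay outside the gene itself, with CCAAT and TTTGAA on either strand in capitals (ATTGG and TTCAAA when read on the other strand).
Plk4: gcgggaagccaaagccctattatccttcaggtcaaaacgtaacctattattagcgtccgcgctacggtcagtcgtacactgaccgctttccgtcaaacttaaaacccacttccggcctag
Dtl: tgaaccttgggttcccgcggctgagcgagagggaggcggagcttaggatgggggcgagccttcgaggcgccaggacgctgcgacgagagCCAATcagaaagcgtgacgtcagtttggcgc
Nuf2: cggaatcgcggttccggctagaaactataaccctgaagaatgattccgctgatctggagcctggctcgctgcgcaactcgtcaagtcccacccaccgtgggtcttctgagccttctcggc
Kpna2: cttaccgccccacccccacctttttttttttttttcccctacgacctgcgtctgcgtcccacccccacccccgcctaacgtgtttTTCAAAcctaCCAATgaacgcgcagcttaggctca
The windows are chr3:40799831-40799950 (+), chr1:191575545-191575664 (−), chr1:169531465-169531584 (−) and chr11:106999526-106999645 (−). The Kpna2 window, of an importin chosen for display after its values were seen (difference 1.33, adjusted p = 0.00516), held both motifs, that of Dtl held CCAAT, and those of Plk4 and Nuf2 held neither. Over 250 bases upstream, CCAAT was found in 72.1% of the 43 mitosis genes with a promoter in the table and in 34.5% of all 27025 genes, and TTTGAA in 34.9% and 16.3%. Among the 11727 tested genes with a promoter the shares were 35.9% and 11.2%. Among called genes with a promoter, 12 of 25 that rose and 12 of 38 that fell held CCAAT, and 6 and 5 held TTTGAA. A match is a run of letters and not a known binding site, and the lists were not tested for it.

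Other large rises were in genes of vesicle transport, leukocytes and epithelium. Arl14, a small GTPase of vesicle transport, read −7.20, −5.70, −6.57, −7.22 and −4.75 on uninjured and −2.34, −2.76, −1.77, −2.02 and 0.03 on injured arrays. It was not well above background on any uninjured array. By the deposited intensities it was at least 9.28-fold higher after injury (adjusted p = 0.000709 by limma). With normexp the difference was 1.68 on the log2 scale, short of that bound. Array 5 was here the highest of the injured arrays. Chil3, a chitinase-like protein of macrophages whose probe may also bind its near copies, read −1.43 to 1.88 uninjured and 4.41, 4.63, 6.16, 6.65 and 2.29 injured. All injured arrays were above the controls and the difference was 4.46 (SE 0.80, adjusted p = 0.00829, 5.09 without array 5), although it did not pass with the slide, which holds 1 array of each group, as a block (adjusted p = 0.0119). Anxa10, an annexin of epithelial cells, rose by 4.45 (SE 0.75, adjusted p = 0.00605, 2.74 with normexp), and Ccl8, a chemokine for monocytes, by 3.01 (SE 0.55, adjusted p = 0.00866), although Ccl8 on array 5 (1.03) was inside the uninjured range of −1.12 to 1.07. The splicing regulators Tra2a (0.93), Tra2b (0.67) and Srsf1 (0.70, adjusted p = 0.00829, and 0.0119 with normexp) were chosen after their values were seen. They rose less but had all injured arrays above all uninjured ones at these probes. Other probes of Tra2a (0.45, adjusted p = 0.469, and 1.24, adjusted p = 0.0114) and Srsf1 (0.64, adjusted p = 0.0822) did not pass. Without injured array 1 the called probes did not pass either (adjusted p = 0.0166, 0.0181 and 0.014 by limma).

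Among secreted proteins of the luminal epithelium, Sftpa1, a surfactant collectin of the innate defence, showed the largest fall. Its brighter probe (chromosome 14, 38560683 to 38560742, on the build of the files, which they do not name) read 3.58, 3.47, 3.40, 3.20 and 3.67 on uninjured and −3.50, −5.31, −4.45, −5.39 and 1.06 on injured arrays. All injured arrays were below all controls, array 5 least so, and the difference was −6.98 (SE 0.96, adjusted p = 0.0021, −8.13 without array 5). The second probe was well above background on 0 injured arrays and at least 9.69-fold lower by the deposited intensities (adjusted p = 1.05e-05 by limma). With normexp its log2 difference was −2.13, short of that bound. Sftpb, a surfactant protein of the lung, fell (−2.16, SE 0.37, adjusted p = 0.00646), but was well above background on 1 injured array, and with normexp the difference was −0.83 (adjusted p = 0.0405). Array 5 (−3.25) was inside the uninjured range of −3.50 to −2.75 and the other injured arrays were at −5.87 to −5.50. The surfactant list had 2 of 8 genes called lower, against 0.293% of all genes, and a median of −1.04. As whole tracheas were measured, fewer cells of a type and less RNA per cell cannot be told apart.

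Scgb1a1, the main secretoglobin of club cells, fell from 8.25, 7.65, 7.91, 7.88 and 8.10 to 4.79, −0.84, 2.72 and 0.18 on injured arrays 1 to 4 (−6.24, SE 0.73, adjusted p = 0.00069 by limma). The spot on array 5 was marked as an outlier by the scanner software and left out. Kept, it read 7.56, just below the controls, and the difference was −5.08 (SE 1.01, adjusted p = 0.0125). Bpifa1, an antimicrobial protein of the airway surface, was likewise called on 4 injured arrays (−2.36, SE 0.33, adjusted p = 0.00287), and with its outlier spot on array 5 kept (9.0, within the uninjured range) it did not pass (−1.85, adjusted p = 0.0303).

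Scgb3a2, a second secretoglobin, spread widely over the injured group. It read 9.31, 9.13, 9.25, 8.59 and 9.43 on uninjured and 7.94, 3.07, 5.52, 3.21 and 9.10 on injured arrays. Arrays 2 and 4 were lowest, array 3 intermediate, array 1 just below the controls and array 5 among them, and the difference of −3.37 did not pass (SE 0.83, adjusted p = 0.0326), whereas without array 5 it was −4.20 (adjusted p = 0.000837). Scgb3a1, another secretoglobin, changed little. It read 8.64 to 9.36 uninjured and 8.77, 9.02, 8.43, 8.41 and 9.24 injured, with only arrays 3 and 4 below the controls. Of the 7 tested genes of club cell secretion only Scgb1a1 was called, against 0.293% of all genes called lower. Their median was −0.68 and their differences ran from −6.24 to −0.13. Cyp2f2, a club cell cytochrome, differed by −0.38 (adjusted p = 0.389), with injured levels of 7.66 to 8.65 overlapping the uninjured range. Fmo1 (−1.1, adjusted p = 0.00796, and 0.012 with the slide as a block) was the single called gene of the 28 tested for xenobiotic metabolism, where the median was −0.64.

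**Figure D2:**
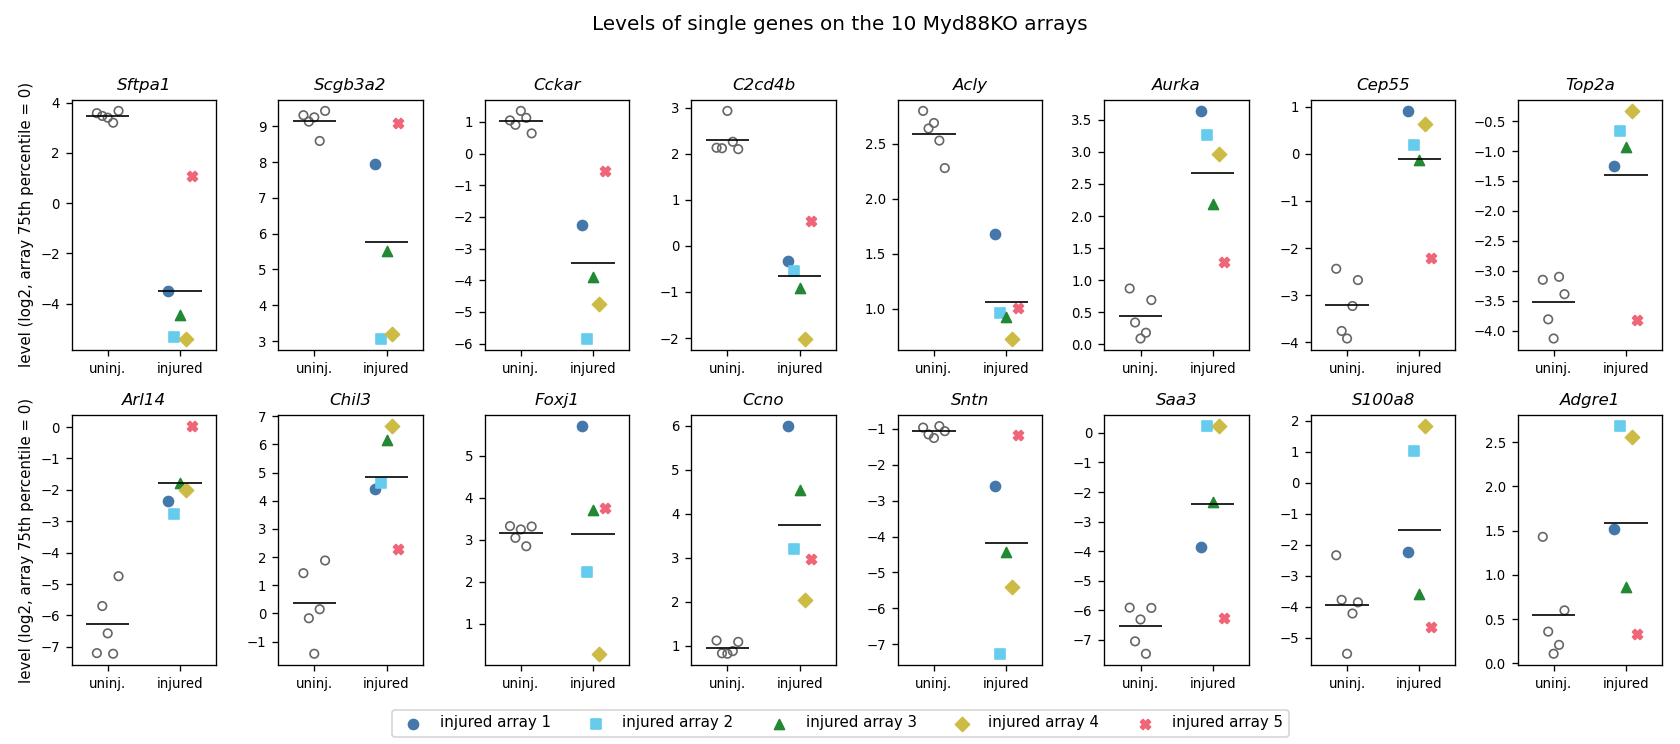
Levels of 16 genes (log2, array 75th percentile at 0) on the uninjured (open circles) and injured (coloured symbols, by array) Myd88KO arrays, at the probe with the highest uninjured mean and with horizontal bars at group means. For Sftpa1, Arl14 and Aurka no injured array enters the uninjured range, while for Scgb3a2, Top2a, Saa3 and S100a8 injured array 5 lies within or beyond it.

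Cckar, a receptor for cholecystokinin, was another large fall. It read 1.05, 0.91, 1.35, 1.13 and 0.64 uninjured and −2.24, −5.84, −3.89, −4.74 and −0.56 injured (−4.47, SE 0.68, adjusted p = 0.00425), with no overlap. C2cd4b, a nuclear protein induced by cytokines in endothelium, read 2.13, 2.12, 2.93, 2.26 and 2.10 uninjured and −0.32, −0.55, −0.91, −2.01 and 0.55 injured (−2.96, SE 0.35, adjusted p = 0.00069), also with no overlap. Nr1i2, the xenobiotic-sensing nuclear receptor PXR, fell (−3.14, SE 0.53, adjusted p = 0.00576), but was well above background on 1 injured array, and with normexp the difference was −1.14 (adjusted p = 0.0108). Gnb3, a G-protein subunit used by taste receptor and tuft cells, fell by 2.37 (SE 0.40, adjusted p = 0.00576). Neither overlapped between groups, but for Gnb3 array 5 (−1.05) was only just below the lowest control (−1.04).

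Tbata (−3.55), Slc35d3 (−2.89), Unc79 (−2.89), Kcnk12 (−2.81), Erich5 (−2.75) and Otos (−2.58) passed the test with arrays 1 to 4 far below the controls and array 5 within the uninjured range for each of these 6. Tbata, for instance, read −3.19 to −2.53 uninjured and −7.10, −7.51, −7.61, −7.49 and −2.82 injured. Tbata, Slc35d3 and Erich5 were well above background on 1 injured array each, so that their differences depend on the background: with normexp they were −1.24, −1.32 and −0.81 and did not pass (adjusted p = 0.0161, 0.0108 and 0.0541). With the slide as a block, Tbata, Unc79, Kcnk12 and Erich5 did not pass (adjusted p = 0.0101, 0.0106, 0.0101 and 0.0102). The transcript 1700021K14Rik (4.26 to 4.52 uninjured) read 1.66, −0.60, 0.43, −0.37 and 4.19 (−3.28, adjusted p = 0.00914), with array 5 just under the controls. Syp, the synaptic vesicle protein synaptophysin of neuroendocrine cells, fell by 0.89 on average (adjusted p = 0.00843, but −0.54 and 0.023 with normexp). All its injured arrays lay below all uninjured ones. Syp was the called member of the 12 neuroendocrine and tuft genes (median −0.77), against 0.293% of all genes called lower.

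Array 5 was also below all uninjured arrays in 51 of the 63 called falls, which were called with array 5 in the fit. Its spots for Scgb1a1 and Bpifa1 were left out, and the share over all tested probes was not counted. Acly, which makes cytosolic acetyl-CoA for lipid synthesis, read 2.80, 2.64, 2.69, 2.53 and 2.28 on uninjured and 1.68, 0.96, 0.93, 0.73 and 1.01 on injured arrays, without overlap (−1.52, SE 0.21, adjusted p = 0.0021, −1.51 without array 5). All 14 genes of fatty acid synthesis were lower, with a median of −1.14. Only Acly was called, against 0.293% of all genes called lower (6 without array 5, against 2.76%). However, 8 of the 14 had all injured arrays below all uninjured ones, against 2.63% of all genes (1.08% in the other direction). The list medians on injured arrays 1 to 5 were −0.48, −1.41, −1.32, −1.41 and −1.19, so that array 1 was the least changed and array 5 resembled arrays 2 to 4, and the difference was −1.43 on the first scan day and −0.63 on the second. Fat markers were low on arrays 2 to 4 but not in the same way on array 5: the brown adipocyte list had medians of −0.10, −1.40, −1.69, −1.54 and 0.22 and the white adipocyte list 0.11, −1.23, −1.21, −1.39 and −0.45, with 0 of 10 and 0 of 14 called. On array 5 the brown adipocyte median was thus inside its uninjured range of −0.27 to 0.34. Plin1, the coat protein of fat droplets, read 3.12 to 3.63 uninjured and 3.43, 1.81, 1.94, 2.07 and 2.75 injured (−1.05, adjusted p = 0.0859). The part of fat content in the fatty acid synthesis result was not tested.

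Egr1, an immediate early transcription factor, read 3.30, 2.06, 2.67, 3.08 and 3.35 on uninjured and 1.1, 1.1, 0.55, 0.96 and 1.48 on injured arrays (−1.85, SE 0.30, adjusted p = 0.00524), with all injured arrays below the controls. It was the only called member among 17 immediate early genes, whose median was −0.53, against 0.293% of all genes called lower. Inhbb, which encodes an activin subunit, fell by 0.80 (adjusted p = 0.00843). It was the single call among 24 TGF-beta and BMP genes, whose median was −0.16, against the same 0.293% of all genes.

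Genes of the motile axoneme, the structure of cilia, differed more between injured arrays than between groups. Their median was −0.90 over 71 genes, 0 were called and 7 were higher. The medians on injured arrays 1 to 5 were 1.32, −2.32, −0.54, −3.23 and 0.14, while uninjured arrays lay between −0.08 and 0.12: arrays 2 and 4 were far below, array 3 somewhat below and array 1 above the controls, with array 5 just above them. The median SD of these genes over the injured arrays was 1.90, compared with 0.23 over uninjured ones. Without array 5, 6 of 71 were called lower, against 2.76% of all genes, and the median was −1.15. By scan day the difference was −1.91 on the first and 0.65 on the second, so that the sign of the list was not the same on both days. Without array 1 the median was −1.46. Sntn, a protein of the ciliary tip, read −1.26 to −0.93 uninjured and −2.59, −7.26, −4.43, −5.40 and −1.19 injured (−3.10, SE 0.71, adjusted p = 0.0254, and 0.000353 without array 5).

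The regulators that build cilia divided the arrays in another way. Foxj1, the master transcription factor of motile ciliogenesis, read 2.85 to 3.33 uninjured and 5.71, 2.23, 3.72, 0.29 and 3.77 injured, above the controls on arrays 1, 3 and 5 and below them on 2 and 4 (difference −0.02, adjusted p = 0.995). Ccno, a cyclin needed to amplify centrioles in new multiciliated cells, read 1.12, 0.83, 0.82, 0.88 and 1.09 uninjured and 5.99, 3.19, 4.53, 2.04 and 2.97 injured. All injured arrays were above the controls, array 1 by most, yet the spread left the difference of 2.80 short of the threshold (SE 0.75, adjusted p = 0.0462). Deup1, a protein of the deuterosome, where centrioles of multiciliated cells are made, read −4.56 to −3.71 uninjured and 0.64, −2.89, −0.51, −4.24 and −2.73 injured (2.34, adjusted p = 0.095), and array 4 was within the uninjured range.

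**Figure D3:**
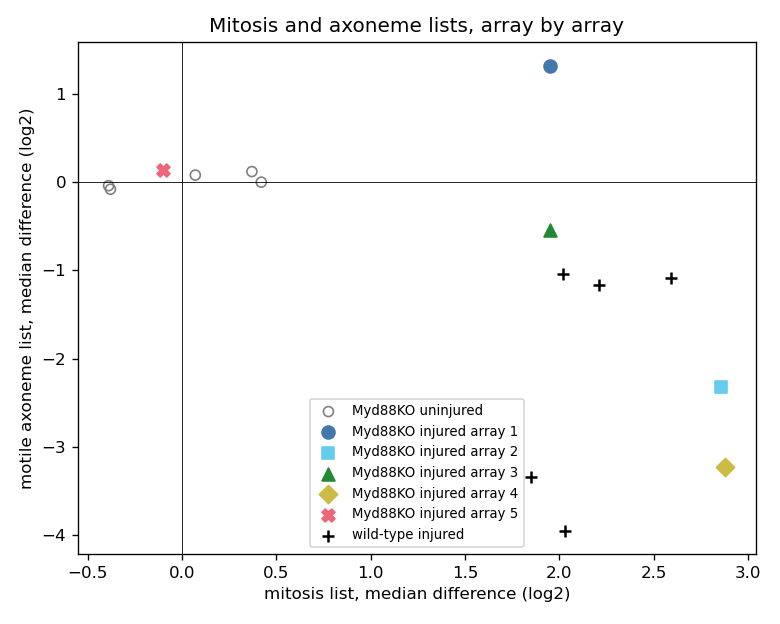
Median difference of the mitosis list (horizontal, 51 genes) against that of the motile axoneme list (vertical, 71 genes) on single arrays, each relative to the uninjured mean of its genotype (log2). Injured Myd88KO arrays 1 to 4 lie at 1.95 to 2.88 for mitosis and spread from −3.23 to 1.32 for the axoneme. Array 5 lies within the uninjured Myd88KO range for mitosis (−0.10) and just above it for the axoneme (0.14). Wild-type injured arrays are all at −1.04 or below for the axoneme.

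Basal cell genes did not pass the test. Krt5, the keratin of basal cells, read 5.61 to 6.29 uninjured and 5.65, 7.41, 6.28, 6.88 and 6.17 injured (0.45, adjusted p = 0.553), and Krt14, induced in basal cells during repair, read 3.18 to 3.86 and 2.82, 6.29, 3.80, 5.25 and 3.20 (0.73, adjusted p = 0.5). For both, arrays 2 and 4 were above the controls and the others within or below their range. Krt15, a further basal cell keratin, read 6.60 to 7.25 uninjured and 7.78, 7.59, 7.99, 7.74 and 7.09 injured. For Krt15, arrays 1 to 4 were thus above the controls and array 5 within their range, and it was not called. Trp63, the basal cell transcription factor, differed by 0.05 (SE 0.21) and the epithelial adhesion molecule Epcam by 0.05 (SE 0.20), with overlapping groups for both. Of the 19 basal cell and 21 epithelial junction genes 0 were called, with medians of 0.33 and 0.12. In these lists 16 and 14 genes were higher, against 6993 of all 17733 tested genes.

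Leukocyte genes were highest on injured arrays 2 and 4. The neutrophil list (20 genes tested) had medians of 0.89, 3.27, 0.33, 3.62 and −0.25 and the macrophage and monocyte list (42) 0.93, 2.16, 0.33, 1.93 and −0.30, where uninjured arrays reached from −0.42 to 0.74. In both lists 0 genes were called (5 of 20 and 2 of 42 without array 5, against 1.92% of all genes called higher), with median differences of 1.35 and 1.03. Csf3r, the receptor for the granulocyte growth factor G-CSF, was well above background on 0 uninjured and 3 injured arrays. For S100a8, a calcium-binding protein of neutrophils, the levels were −5.52 to −2.34 uninjured and −2.24, 1.02, −3.59, 1.83 and −4.66 injured (2.42, SE 1.12, adjusted p = 0.242). Clec4e, a lectin receptor of myeloid cells, read −5.67 to −3.66 and −1.57, 1.27, −2.38, 2.46 and −4.45 (3.92, adjusted p = 0.0386, and 0.0025 without array 5). Arrays 1 to 4 were above the controls for Clec4e, whereas array 3 was within their range for S100a8. The macrophage markers Adgre1 (1.05, adjusted p = 0.177) and Cd68 (1.39, adjusted p = 0.157) overlapped between groups, with arrays 2 and 4 highest for each. By scan day, the neutrophil median was 2.81 on the first and −0.29 on the second.

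Inflammatory mediators were likewise highest on arrays 2 and 4. Il1b, the cytokine interleukin-1β, read −4.56 to −2.24 uninjured and −1.88, 0.90, −2.85, 2.45 and −4.79 injured (2.40, adjusted p = 0.224). Saa3, an acute phase protein, was not well above background on any uninjured array (−7.47 to −5.91) and read −3.87, 0.23, −2.35, 0.22 and −6.26 on injured arrays. By the deposited intensities it was at least 6.1-fold higher but did not pass (adjusted p = 0.0458 by limma, and 0.00308 without array 5). Over the alternative settings its log2 difference ranged from 1.87 to 5.57. Lcn2, a siderophore-binding acute phase protein, read −4.26 to −3.70 and −4.91, −1.30, −3.83, −1.21 and −4.83, so that only arrays 2 and 4 were clearly above the controls (0.82, adjusted p = 0.54). Timp1, an inhibitor of matrix proteases, reached 5.09 and 6.09 on these arrays against 0.90 to 2.58 uninjured (2.06, adjusted p = 0.0865). Of 18 acute phase genes 0 were called, with a median of 0.04. Of 17 CC chemokine genes Ccl8 was called, with a median of 0.62, against 0.152% of all genes called higher. Interferon-stimulated genes had a median of −0.38 over 33 genes and array medians of −0.08, −0.45, −0.41, −0.03 and −0.88, array 5 being the lowest, with 0 called.

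**Figure D4:**
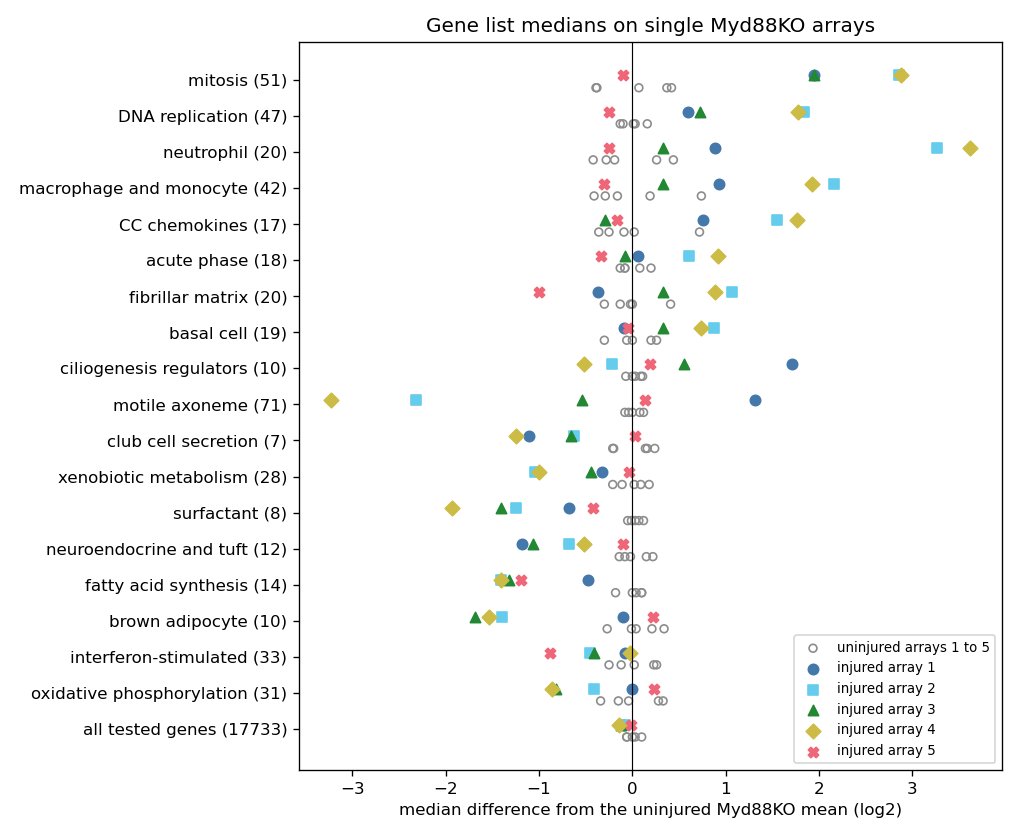
Median difference from the uninjured Myd88KO mean (log2) of 18 gene lists and of all tested genes on each injured (coloured symbols) and uninjured (open circles) Myd88KO array, with the number of genes tested in brackets. Arrays 2 and 4 are highest for the neutrophil list (3.27 and 3.62) and lowest for the axoneme list (−2.32 and −3.23), and array 5 is at −1.19 for fatty acid synthesis.

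The spread between injured Myd88KO arrays was wider than in any other group. The median SD over probes was 0.394, compared with 0.291 in uninjured Myd88KO, 0.314 in uninjured wild-type and 0.331 in injured wild-type arrays. Probes with an SD over 1 made up 6.77% in injured and 1.39% in uninjured Myd88KO arrays, and 5.07% in injured wild-type arrays. Without array 5 the median SD was 0.357 and the share 5.64%. The genes with the largest SD were of several kinds. Cxcl3, a neutrophil chemokine, ranged from −6.52 to 3.22 over injured arrays and was highest on arrays 2 and 4, as was Acod1, the itaconate-producing enzyme of activated macrophages (−6.35 to 1.61). Lor, the cornified envelope protein loricrin, read 4.04 and 4.57 on injured arrays 1 and 2 and −2.01 to −1.17 on the others, and the late envelope gene Lce3f 3.56 and 2.80 against −4.47 to −1.13. Pth, parathyroid hormone, spanned −5.52 to 4.32 over injured and −7.35 to 4.33 over uninjured arrays, so that it varied as widely without injury.

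With the wild-type response beside it, the Myd88KO response held the same sign for 97 of the 98 called probes. Of these 98, 60 were also called in wild-type tracheas in the same direction. The share of all tested probes with the same sign was not counted, and the calls of both genotypes share the estimate of the spread. Injured Myd88KO arrays 1 to 5 had correlations with the mean wild-type response of 0.163, 0.817, 0.444, 0.739 and −0.181 across probes. In wild-type tracheas 3.65% of genes were called higher and 2.32% lower. The difference between the responses was tested directly and 0 probes passed (lowest adjusted p = 0.179 by limma), while 2703 (10.4%) had an unadjusted p under 0.05. Without array 5, 3 probes passed: 2 of Frmd5, a membrane-cytoskeleton linker, and 2210407C18Rik. The brightest Frmd5 probe was not among them. Its Myd88KO difference was −1.13 (adjusted p = 0.0753 by limma, and −1.34, adjusted p = 0.017 without array 5). The Frmd5 probe of lowest p read −1.39 to −0.85 on uninjured and −3.87, −3.40, −4.47, −3.18 and −1.14 on injured Myd88KO arrays. There array 5 was within the uninjured range. On uninjured wild-type arrays this probe read −2.87 to −1.70, so that the genotypes did not overlap before injury. Its difference was −2.03 in Myd88KO and 1.62 in wild-type tracheas (difference between responses −3.65 with array 5, and −4.16 with adjusted p = 6.62e-05 without it). 2210407C18Rik read −3.12 to −2.22 uninjured and 0.47, 1.56, 0.91, 3.01 and −2.47 injured (3.33), whereas its wild-type difference was −0.04. Its uninjured wild-type levels were −1.92 to −0.27, again without overlap between genotypes.

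Gene lists differed in how their Myd88KO and wild-type medians compared. For mitosis they were 1.92 (2.46 without array 5) and 2.17, and 0 of 51 genes differed between responses at an unadjusted p under 0.05 (1 higher in Myd88KO without array 5). For the acute phase list they were 0.04 and 1.54, and 11 of 18 genes had a lower Myd88KO response at that level, against 7.8% of all genes in that direction and 2.98% in the other. Without array 5 the count was 9 of 18, against 8.11% (2.69% in the other direction). For interferon-stimulated genes 15 of 33 were lower (11 without array 5), with medians of −0.38 and 0.46. For macrophage and monocyte genes 14 of 42 were lower (10 without array 5), with medians of 1.03 and 2.18. Single genes of these lists included Lcn2, which differed by 3.62 (adjusted p = 0.00207) in wild-type and 0.82 in Myd88KO tracheas (difference −2.80, unadjusted p = 0.00844), and Cd68 (3.27 and 1.39, difference −1.88, unadjusted p = 0.0224), neither of which passed after adjustment. For the motile axoneme, the wild-type medians were −3.95, −1.16, −1.09, −1.04 and −3.34, below the controls on all 5 arrays, and 17 of 71 genes were called lower, against 2.32% of all genes. Between responses 5 of 71 were higher in Myd88KO at an unadjusted p under 0.05, against 2.98% of all genes, and 2 of 71 without array 5, against 2.69%.

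**Figure D5:**
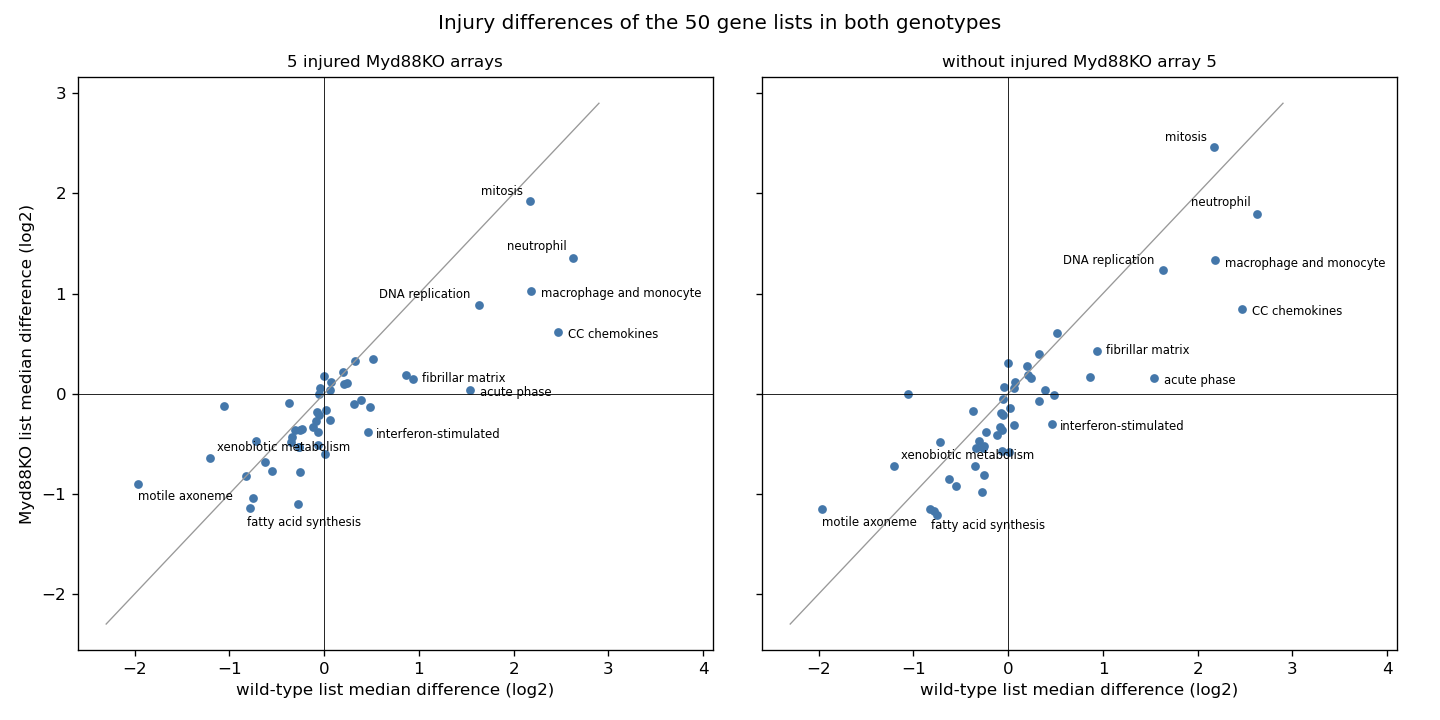
Median injury difference (log2) of the 50 gene lists in wild-type (horizontal) and Myd88KO (vertical) tracheas, with all injured Myd88KO arrays (left) and without array 5 (right), where each point is 1 list and the grey line marks equal medians. The mitosis list lies near the line (2.17 and 1.92), whereas acute phase (1.54 and 0.04) and CC chemokines (2.47 and 0.62) lie below it in both panels.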

How the data were processed

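RNA of 20 whole tracheas had been hybridised with 1 dye to Agilent whole mouse genome arrays (5 per group). The authors deposited the intensity of each spot after background subtraction by Feature Extraction 9.5.1.1, not scaled between arrays, and a value table of the same intensities. Here control spots and 1960 outlier values were left out, spots of 1 probe were averaged, and log2 intensities were set relative to the 75th percentile of each array. A probe was tested if well above background on 10 of 20 arrays. All arrays were fitted together with limma 3.58.1 in R 4.3.3 (2-sided, Benjamini-Hochberg adjustment over all tested probes), and the procedure was tested on simulated data. The simulation gave all groups the same spread and all injured Myd88KO arrays the same shift, unlike these data. It therefore cannot show how a wider injured group or an array such as array 5 affects the calls. Precision is limited by having 5 arrays in a group.

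A bound on a fold sets the brighter group's mean against, per array of the dimmer group, whichever is larger of the signal of that probe and the dimmest signal counted as well above background. It holds for the deposited background subtraction, and normexp gave differences short of it for Cep55, Arl14 and Sftpa1. For gene lists, the brightest probe stood for each gene, and counts and medians are given with no test. The 50 lists held 1100 genes, of which 990 were tested and 15 called. The comparison, the lists and the markers were chosen with earlier results of these data known. Named are the 15 largest rises and falls, called members of described lists (or the pair with the largest differences), fixed markers, the most variable genes, those of lowest p between responses, and the largest changes without array 5. Names came from a mouse gene table (GRCm38.p6): the match was on accession for 22951 probes, on symbol for 6659 and on a former symbol for 3109, while 8455 stayed under their array name. Alternatives covered normalisation, filters, batch terms, weights and each array left out. The 2 that use Xist were chosen after seeing the data, as was the use of results without array 5 throughout.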

Additional observations from a re-analysis of the deposited data

Results flagged for a closer look

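Of 162 groups of 5 arrays examined, 4 held a value far from the rest of its group, where chance alone gives about 1 in 20. Injured Myd88KO array 5 was the lowest for Top2a (−3.82), for Xist (−4.26) and for the median of the T and NK cell list (−0.45). Injured array 1 had the highest median of the fatty acid synthesis list (−0.48).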

How the results depend on the processing

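Relative to the 98 probes called, the counts were 56 with median scaling, 60 without the filter on dim probes, 361 with scan day as a block, 2088 with array weights, 841 at an adjusted p under 0.05 and 0 with the Myd88KO arrays alone. A t-test of the 5 injured against the 5 uninjured Myd88KO arrays gave 1275 probes at an unadjusted p under 0.01. After Benjamini-Hochberg adjustment it gave 0. It used the filter and scaling given here and is not the study's own procedure, a one-way analysis of variance across all wild-type and KO samples. With the 7 Myd88KO arrays of high Xist, an alternative chosen after seeing the data, 318 were called. Leaving out 1 array gave 6 to 1075, with 57, 6, 11, 6 and 1075 for injured arrays 1 to 5 and 14, 18, 7, 23 and 19 for uninjured arrays 1 to 5. Listed genes called (15) became 23 with normexp, 8 without the filter, 35 with scan day, 0 with Myd88KO arrays alone, 220 with weights, 51 with high Xist and 1 to 129 when 1 array was left out. The probes that differed between responses (0) became 1 with the slide block, 2 with scan day, 3 with weights, 1 with high Xist and 0 to 3 when 1 array was left out. The spread of 0.394 became 0.322 with normexp and 0.349 to 0.408 with 1 array left out. The cause of these shifts was not tested.

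With the replicate block, which is also the slide, 51 probes were called higher and 92 lower (143, of which 77 were among the 98). The block ended 21 of the 98 calls and normexp 30, and with normexp 34 differences were smaller by over 1.5 times. Same-numbered injured and uninjured Myd88KO arrays, which shared a slide, correlated at 0.459, 0.248, 0.006, 0.246 and 0.235 in their deviations from group means. Replicates 2 and 3 matched another number best. The main fit did not take the numbers as pairs and so left any effect of the slide in the spread.

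The sign turned in 36 values, all of genes that were not called. With 1 array left out, the differences ranged from −0.52 to 2.4 for Pth, −0.39 to 1.7 for Trim12a, −0.32 to 1.48 for A230103O09Rik, −0.66 to 0.7 for Foxj1, −0.02 to 0.12 for Trp63, −0.02 to 0.11 for Epcam, −0.31 to 0.16 for Muc5b, −0.56 to 0.23 for Cxcl5, −0.06 to 0.56 for Col2a1 and −0.04 to 0.11 for Myd88. With array weights Trp63 was −0.02, Muc5b 0.1 and Cxcl5 0.1. With the 7 arrays of high Xist, Xist was −0.37 and Cxcl5 1.11. Foxj1 was 0.03 with normexp, 0.02 with quantile normalisation, 0.03 with median scaling and 0.08 with Xist level as a covariate.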

Other observations

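Several of the largest changes without injured array 5 were in genes not described above. Bpifb9a, a secreted protein of the BPI fold family, read −4.07 to −0.72 on uninjured and 2.52, 3.07, 2.30, 4.57 and 0.70 on injured Myd88KO arrays. All injured arrays were above the controls (4.88, adjusted p = 0.0121 by limma, and 5.36, adjusted p = 0.00209 without array 5). Sprr2a1, a cornified envelope precursor whose near copies may share the probe, read −0.46 to 1.09 and 1.36, 5.52, 3.97, 6.60 and 0.31 (3.29, adjusted p = 0.0597, and 4.1, adjusted p = 0.00484 without array 5). A brighter Sprr2a1 probe differed by 0.06 (adjusted p = 0.899), so that the probes disagreed. Muc13, a membrane mucin, read −7.04 to −4.37 and −2.43, −0.79, −1.08, −1.79 and −6.12 (4.40, adjusted p = 0.000258 without array 5), and was well above background on 1 uninjured array. Aoc1, a diamine oxidase, read 3.02 to 3.94 and 0.95, −2.48, −1.44, −1.58 and 3.66 (−3.75, adjusted p = 0.02, and −4.71, adjusted p = 6.55e-05 without array 5). Cdh26, a cadherin of epithelial cells, read −0.40 to 0.57 and −3.12, −4.75, −4.13, −5.67 and 0.18 (−4.51, adjusted p = 1.96e-06 without array 5). Apart from Bpifb9a, array 5 lay within the uninjured range for each of these genes.

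Jchain, the joining chain of secreted antibodies, was named after its values were seen. It read −2.75 to −0.81 on uninjured and 0.74, −0.83, −2.32, −1.68 and −0.19 on injured Myd88KO arrays (1.02, adjusted p = 0.558), whereas its wild-type difference was −4.28 (adjusted p = 0.00366). The difference between responses was 5.30 (unadjusted p = 0.000367) and did not pass after adjustment.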
